A study of Mus musculus with 8 samples.

Results

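Tight junctions seal the space between neighbouring epithelial cells, and tricellular junctions close the points where 3 cells meet. The 9 genes described here encode parts of these junctions: the membrane proteins Lsr, Marveld2, Ocln, Cldn15, F11r and Cxadr, and the cytoplasmic proteins Tjp1, Cgn and Patj. They were taken by symbol from 45321 genes measured in cultured mouse colon fibroblasts. They had been chosen from earlier results of these same libraries, on their levels in the compared genotypes, so their difference between genotypes is described below without a test.

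Claudins such as the Cldn15 protein form the paracellular barrier and its ion pores, and Ocln (occludin) and Marveld2 (tricellulin) share a 4-span membrane domain. LSR gathers at tricellular corners and recruits tricellulin. F11R (JAM-A) and CXADR are immunoglobulin-type adhesion proteins of the junction. TJP1 (ZO-1), cingulin and PATJ lie on the cytoplasmic side, where TJP1 links membrane proteins to actin and PATJ is part of the Crumbs polarity complex. Fibroblasts do not normally build tight junctions, although they make several of the cytoplasmic proteins. ZEB1 is a transcription factor best known for repressing epithelial adhesion genes through DNA motifs called E-boxes.

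The study compared fibroblast cultures with an intact floxed Zeb1 gene (Zeb1 flox/flox, Fib-Ctrl) with cultures in which it had been deleted (Zeb1 del/del, Fib-dZeb1), to ask what loss of this factor does to colon fibroblasts. The labels name no treatment for either group. There were 4 libraries per genotype, from 2 culture lines with 2 replicates each. Cultures were grown from colon tissue on gelatine, and the deletion was made by inducing Cre recombinase in vitro. Whether Fib-Ctrl cultures were also exposed to the inducing agent is not given in the sources used here, so genotype and Cre exposure cannot be told apart. Whether lines with the same number share an animal is likewise not given. Since each genotype had only 2 lines, p-values over libraries treat replicates of a line as independent samples. Fewer expressing cells and less RNA per cell cannot be told apart in these bulk samples.

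Libraries held 18852422 to 25540529 reads. Zeb1 itself lay at 92.1 to 98.5 CPM (read counts over a library total scaled for composition) in the 4 Fib-Ctrl libraries and at 11.4 to 18.3 CPM in the 4 Fib-dZeb1 libraries. Of 8 fibroblast markers, read as TPM (levels that take transcript length into account), Vim ranged over 2890 to 5030 in Fib-Ctrl, compared with 3260 to 4210 in Fib-dZeb1, and Thy1 over 129 to 219 and 185 to 247, in that order. Pdgfra had 29511 and 38619 reads in all. Without overlap, Col1a1 was lower in Fib-dZeb1 (5390 to 7360 TPM in Fib-Ctrl, 1270 to 3230 in Fib-dZeb1), as was Col1a2 (3820 to 5080 and 966 to 2330). Ranges overlapped for Fn1 (2180 to 4630 and 1260 to 2340) and Dcn (324 to 1010 and 127 to 691). The sum of the 8, to which Col1a1, Col1a2, Fn1 and Vim contributed most, was 17000 to 21000 in Fib-Ctrl but 8040 to 12100 in Fib-dZeb1, while Lum was low in both (7.55 to 31.4 and 1.34 to 26.2).

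The promoter letters of members that differed between genotypes are shown first, because the E-box hexamers CAGGTG and CACCTG, which are each other's reverse complement, are the letters ZEB1 is known to bind. RefSeq promoter windows (GRCm38.p6, 250 bases before to 50 bases after a start) existed for 8 of the 9 genes, Cxadr being the missing one. A hexamer was present in a window of 5 of these 8 genes, 62.5%, against 22.6% of all 27025 genes in the table and 20.2% of its 32851 windows. These 8 genes had 12 windows and were chosen with their genotype difference known, so no enrichment is read from this share. The windows of Lsr (4 hexamers) and F11r (1) held hexamers upstream of the start, and those of Patj (3 in its most upstream window) held them around the start. Marveld2 had 1 just downstream of the start, the same hexamer in both of its overlapping windows. Ocln had 1 just downstream of the start of its most upstream window. An overlapping window that begins further into the gene held this same hexamer, at -213 from its own start, and another at -68. Cgn, Cldn15 and Tjp1 had none. A promoter with 2 or more hexamers, as Lsr, Patj and Ocln had, was found for 3.32% of all genes. The upstream parts of 3 windows are printed 5′ to 3′ on the gene's strand, with hexamers in capitals, as an example with several, one with a single hexamer and one without.
Lsr, chr7:30973470-30973719, minus strand: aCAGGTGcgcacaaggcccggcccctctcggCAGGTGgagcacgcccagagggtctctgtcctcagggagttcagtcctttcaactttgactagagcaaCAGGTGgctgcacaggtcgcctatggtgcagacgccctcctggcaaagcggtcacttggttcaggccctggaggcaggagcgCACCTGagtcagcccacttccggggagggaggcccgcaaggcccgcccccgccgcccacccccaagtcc
F11r, chr1:171437311-171437534, plus strand: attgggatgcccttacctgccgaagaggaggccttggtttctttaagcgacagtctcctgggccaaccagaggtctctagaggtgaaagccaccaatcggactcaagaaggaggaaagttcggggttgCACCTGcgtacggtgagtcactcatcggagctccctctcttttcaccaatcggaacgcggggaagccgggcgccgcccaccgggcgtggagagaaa
Cgn, chr3:94786493-94786732, minus strand: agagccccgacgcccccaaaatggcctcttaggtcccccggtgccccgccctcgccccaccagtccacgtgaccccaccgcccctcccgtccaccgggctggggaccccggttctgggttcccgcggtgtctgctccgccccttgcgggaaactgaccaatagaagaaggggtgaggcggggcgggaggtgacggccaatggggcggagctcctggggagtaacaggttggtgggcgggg
The Lsr hexamers started at positions -249, -219, -151 and -69 and that of F11r at -122, counted with the first annotated base as 0. A match is a description of letters only, and binding was not measured in these libraries.

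Across the 9 genes, 6 (Lsr, Cxadr, F11r, Cgn, Patj and Ocln) were higher in each Fib-dZeb1 library than in any Fib-Ctrl library, and 3 (Tjp1, Cldn15 and Marveld2) overlapped between genotypes. Of the 12963 genes that passed the filter on low counts, 12.0% showed such complete separation upwards. The filter was passed by 7 of the 9 genes, while Marveld2 and Ocln did not reach it. Because the genes were chosen on this contrast, nothing is read from their count.

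**Figure D1:**
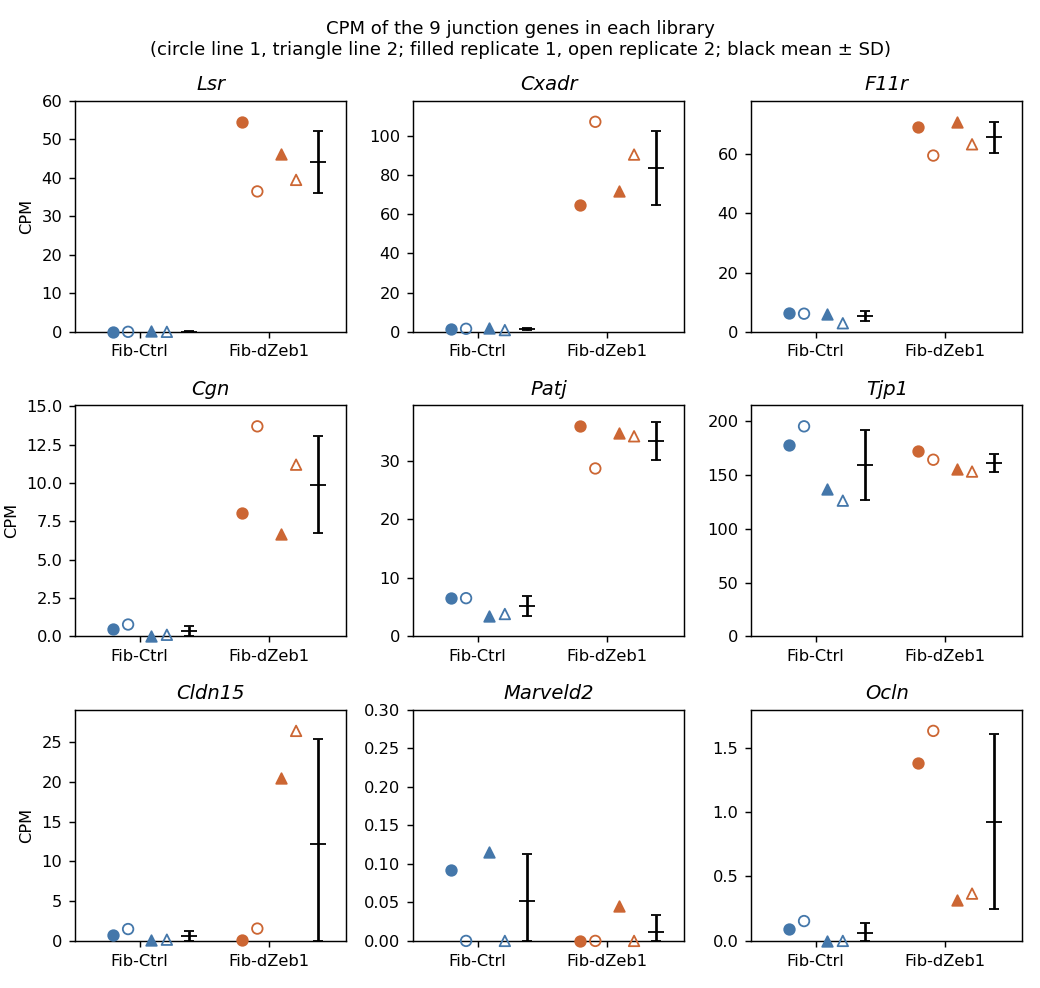
CPM (y axis, linear from 0, own scale per panel) of the 9 genes in Fib-Ctrl (blue) and Fib-dZeb1 (orange); line 1 is drawn as circles and line 2 as triangles, replicate 1 filled and replicate 2 open, with black bars for the mean ± SD of 4 libraries (lower ends stop at 0). Lsr, Cxadr, F11r, Cgn, Patj and Ocln separated by genotype, Tjp1 did not, and Cldn15 was high only in line 2 of Fib-dZeb1.

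Lsr (ENSMUSG00000001247.16, chr7:30957770-30973464, minus strand) had the largest CPM ratio of the genes with one. In Fib-Ctrl the replicates of line 1 held 1 and 0 Lsr reads, while those of line 2 held 2 and 0. In Fib-dZeb1 it had 1144 and 873 reads in line 1 and 1014 and 1077 in line 2, or 54.6, 36.5, 46.2 and 39.5 CPM. Thus a transcript at the edge of detection in all 4 control libraries was well covered in all 4 deleted ones. The CPM ratio was 1130 with a 95% counting interval of 388 to 5500, which is wide because only 3 reads stand on the control side. By mean TPM, Lsr moved from rank 14059 to rank 3567 among 21647 protein-coding genes. Its exons share 946 bases with the antisense gene Gm4673, which had 53 reads over the 4 Fib-Ctrl and 58 over the 4 Fib-dZeb1 libraries.

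Its partner at tricellular corners was not found at a comparable level. Marveld2 (ENSMUSG00000021636.15, chr13:100595957-100616971, minus strand) had 2, 0, 2 and 0 reads in Fib-Ctrl and 0, 0, 1 and 0 in Fib-dZeb1, so no library exceeded 0.116 CPM and no fold is given. Ocln (ENSMUSG00000021638.12, chr13:100496507-100552718, minus strand) lies 43238 bases away on the same chromosome, with 2 annotated non-coding or pseudogene loci between them. Ocln had 2, 3, 0 and 0 reads in Fib-Ctrl. In Fib-dZeb1 it had 29 and 39 reads in line 1 but 7 and 10 in line 2, or 1.38, 1.63, 0.319 and 0.367 CPM. Both deleted lines were above the controls, with line 1 above line 2, and the level stayed low throughout. The CPM ratio was 14.1 (counting interval 5.8 to 44.4). Both genes were too low for the fit across genes, and a difference for Marveld2 was not detectable at this depth.

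F11r and Cxadr, the immunoglobulin-type members, were both separated by genotype. F11r (ENSMUSG00000038235.4, chr1:171437535-171464603, plus strand) lay at 6.46, 6.12, 6.17 and 2.89 CPM in Fib-Ctrl and at 69.1, 59.5, 70.9 and 63.3 CPM in Fib-dZeb1. The control value of line 2 replicate 2 stood below the other 3, whereas the deleted libraries were close to each other. Its CPM ratio was 12.1 (10.9 to 13.3). Cxadr (ENSMUSG00000022865.14, chr16:78301489-78359774, plus strand) lay at 1.6, 1.54, 1.75 and 0.878 CPM in Fib-Ctrl. In Fib-dZeb1, line 1 reached 64.8 and 107.0 CPM while line 2 reached 71.6 and 90.3 CPM. The replicates of a line differed as much as the lines did, and the groups were far apart, with a ratio of 58.6 (48.7 to 71.3). Exons of Cxadr share 695 bases with Btg3 on the opposite strand, which had 3071 reads in Fib-Ctrl and 5453 in Fib-dZeb1 in total. How reads over such shared bases were assigned was not tested.

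The cytoplasmic members behaved unequally. Cgn (ENSMUSG00000068876.14, chr3:94760069-94786492, minus strand), which encodes cingulin, had 10, 15, 0 and 2 reads in Fib-Ctrl and 168, 327, 147 and 304 in Fib-dZeb1. In CPM this was at most 0.772 in the controls and 8.02, 13.7, 6.7 and 11.2 in the deleted libraries, a ratio of 29.0 (19.8 to 44.2). Patj (ENSMUSG00000061859.16, chr4:98395785-98719603, plus strand) was at 6.64, 6.53, 3.49 and 3.82 CPM in Fib-Ctrl and at 35.9, 28.7, 34.7 and 34.2 CPM in Fib-dZeb1. Both genes were detected in control cultures, Patj well above the low level of Cgn, and the Patj ratio was 6.38 (5.75 to 7.1).

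Tjp1 (ENSMUSG00000030516.14, chr7:65296165-65527781, minus strand), the ZO-1 gene, was the exception among the abundant members. It lay at 178, 195, 137 and 126 CPM in Fib-Ctrl and at 172, 164, 155 and 153 CPM in Fib-dZeb1. The deleted libraries fell inside the control range, with a ratio of 1.0 (0.978 to 1.03, counting error only).

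Cldn15 (ENSMUSG00000001739.14, chr5:136966616-136975858, plus strand), a pore-forming intestinal claudin, did not follow genotype alone. It had 16, 29, 1 and 3 reads in Fib-Ctrl. In Fib-dZeb1 it had 2 and 37 reads in line 1 and 449 and 719 in line 2, or 0.0955, 1.55, 20.5 and 26.4 CPM. Line 2 of Fib-dZeb1 stood alone, and line 1 of Fib-dZeb1 overlapped the control libraries. A ratio over genotypes (20.4, 15.3 to 27.7) therefore describes 1 line of 2.

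Per transcript length, Tjp1 led in Fib-Ctrl with a TPM of 41.4 ± 6.48 (SD, n = 4), followed by F11r at 3.8 ± 1.23 and Patj at 2.02 ± 0.802. F11r and Patj overlapped in range, while all the others were below 1 TPM on average and, apart from the step from Patj to Cxadr, overlapped with their neighbours in the order. In Fib-dZeb1 the order was led by F11r at 64.1 ± 7.6 TPM, above the range of Tjp1 at 48.1 ± 3.05. The F11r sum included its short retained-intron transcript F11r-203, at 12.1 to 20.0 TPM. The protein-coding F11r-201 alone lay at 42.4 to 53.8 TPM and overlapped the range of Tjp1. Tjp1 overlapped with Lsr at 45.4 ± 9.46, and Lsr with Cxadr at 30.5 ± 6.21. Patj (15.0 ± 2.6) lay below all of these and overlapped with Cldn15 (13.2 ± 14.4), which overlapped with Cgn (3.78 ± 1.07). Ocln (0.517 ± 0.332) and Marveld2 (0.0106 ± 0.0212) came last without overlap. Thus F11r, Lsr and Cxadr, which encode membrane proteins, and the scaffold gene Tjp1 all lay between 23.6 and 71.5 TPM in deleted cultures, where Tjp1 had stood alone in the controls. Among protein-coding genes, F11r, with F11r-203 included, went from rank 9995 to 2558 by mean TPM, whereas Tjp1 went from 3462 to 3383.

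**Figure D2:**
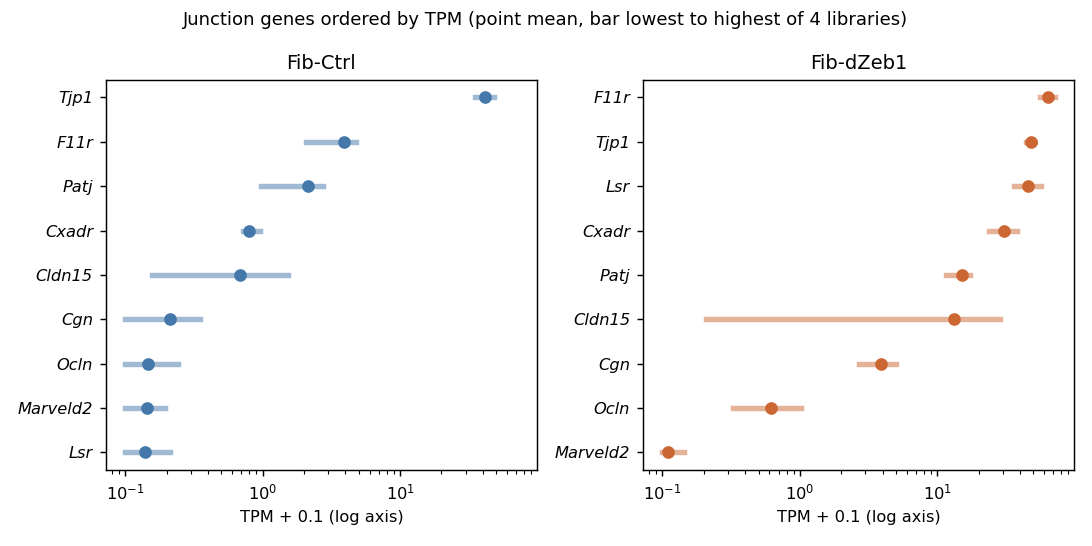
TPM + 0.1 (x axis, log scale) of the 9 genes in Fib-Ctrl (left) and Fib-dZeb1 (right), ordered by mean; points are means and bars run from the lowest to the highest of 4 libraries. Tjp1 stood alone at the top in Fib-Ctrl, and F11r, Tjp1, Lsr and Cxadr lay between 23.6 and 71.5 TPM in Fib-dZeb1.

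The annotated transcripts of these genes, numbered as in GENCODE M21, were also compared as estimated shares of a gene's TPM. Tjp1-202, which carries a 240-base coding exon (chr7:65314093-65314332) that Tjp1-201 lacks, took 49.8 to 54.2% of Tjp1 TPM in Fib-Ctrl, compared with 45.9 to 50.3% in Fib-dZeb1. Neither its level nor its main transcript thus separated the genotypes, the share ranges overlapping. The non-coding Tjp1-203 had no share in the line 1 libraries of either genotype. In line 2 it took 7.98 and 14.7% in Fib-Ctrl and 12.4 and 10.5% in Fib-dZeb1. Only 42 Fib-Ctrl and 67 Fib-dZeb1 reads were assigned to it, and this pattern was not tested. In Fib-dZeb1, Lsr was carried by Lsr-203 (44.1 to 57.1%), Lsr-202 (22.3 to 28.7%) and Lsr-201 (11.7 to 28.4%). Lsr-201 has a 57-base coding exon (chr7:30962811-30962867) absent from both others, and Lsr-202 lacks a further coding exon of 147 bases (chr7:30962098-30962244). Lsr-201 was lower in line 1 (11.7 and 16.9%) than in line 2 (22.7 and 28.4%) of Fib-dZeb1, with 899 reads assigned to it in all. No shares are read for Fib-Ctrl, where Lsr had 3 reads.

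F11r differed in this respect. In Fib-Ctrl its 422 reads were all assigned to the protein-coding F11r-201. In Fib-dZeb1 the retained-intron transcript F11r-203, which is short at 678 bases, took 20.3 to 27.9% of F11r TPM from 335 of 6149 reads. Cxadr-201 held 81.5 to 87.3% of Cxadr TPM in Fib-dZeb1 and 16.9 to 74.4% in Fib-Ctrl, where Cxadr had 17 to 35 reads per library. These shares are estimates from reads that several transcripts could share, and they carry no error from the deposited tables.

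**Figure D3:**
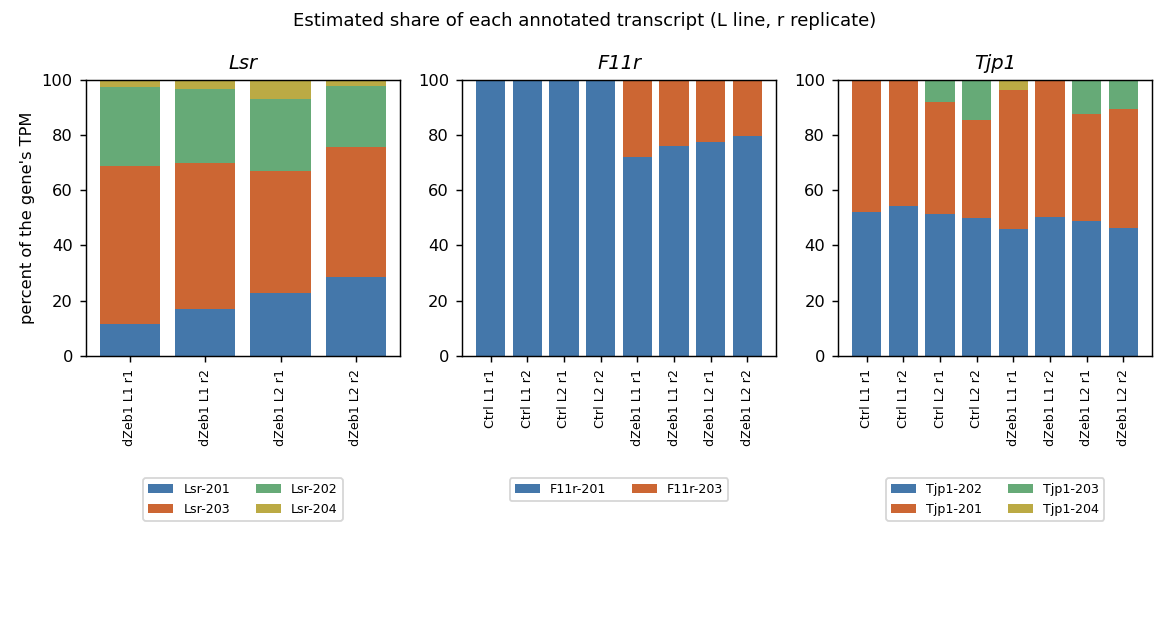
Percent of a gene's TPM (y axis) assigned to each annotated transcript of Lsr (4 Fib-dZeb1 libraries), F11r and Tjp1 (8 libraries each); each bar is 1 library, L line and r replicate. F11r-203 appears in the 4 Fib-dZeb1 libraries at 20.3 to 27.9% and in no Fib-Ctrl library.

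A choice by genotype can favour genes whose lines agree, so a small line difference of these genes is read as description only. The line contrast is otherwise not the one used for the choice, except for Cldn15. Its genotype difference came from line 2 of Fib-dZeb1 alone (fitted at -0.38 between cultures numbered 1 and 7.67 between those numbered 2). The choice thus drew on its line difference, and its test results below are read as description only. The test was edgeR's quasi-likelihood test over 12963 genes with Benjamini-Hochberg adjustment, in which a gene is called at an adjusted p under 0.05 and log2 differences are on a scale where 1 is a doubling. In Fib-dZeb1, 6.87% of genes differed between line 2 and line 1, and of the 7 genes in the fit only Cldn15 did. Cldn15 was higher in line 2 by 4.79 on the log2 scale (SE 0.81, adjusted p = 0.0200). The other 6 had log2 differences from -0.28 for Cgn to 0.093 for Patj and adjusted p-values of 0.471 to 0.912. Lsr, for example, differed by -0.088 (SE 0.27). With 3 reads in Fib-Ctrl, Lsr had passed the filter through its Fib-dZeb1 libraries, as had Cgn. On simulated data this test found 54% of 4-fold and 4% of 2-fold line differences. The simulated spread came from the genotype fit, which includes differences between lines, so these shares need not hold here. Smaller line differences could be missed. The Cldn15 call rests on both line 2 libraries, since it was lost without line 2 replicate 1 (adjusted p = 0.0879) or replicate 2 (0.111), when 1 library remained on that side.

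In Fib-Ctrl the lines differed more broadly, at 17.0% of genes. Tjp1 was lower in line 2 by a log2 difference of -0.51 (SE 0.099, adjusted p = 0.0157) and Patj by -0.85 (SE 0.17, adjusted p = 0.0165). Cgn (-3.35, SE 0.93, adjusted p = 0.0480) rested on 25 reads in line 1 and 2 in line 2 and had passed the filter through its Fib-dZeb1 libraries, so nothing is read from this call. The other 4 did not pass, among them Cldn15 at -3.27 (SE 1.22, adjusted p = 0.107) and F11r at -0.48 (SE 0.3, adjusted p = 0.311). The Cldn15 value rested on 16 and 29 reads in line 1 and 1 and 3 in line 2, so nothing is read from it. Cldn15 was called with a replicate block (0.0462), with no filter on low counts (9.66e-08) or without either line 1 library of Fib-dZeb1 (0.0118 and 0.0116), and F11r without Fib-Ctrl line 2 replicate 1 (-1.13, 0.0309). The calls also depended on single libraries. Tjp1 lost its call without Fib-Ctrl line 1 replicate 2 (0.089), line 2 replicate 1 (0.0559) or line 2 replicate 2 (0.107), Patj without any 1 of the 4 Fib-Ctrl libraries (0.0642 to 0.0857), and Cgn without any of these 4 (0.0904 to 0.176) or without either line 2 library of Fib-dZeb1 (0.0615 and 0.0624).

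Whether the line difference itself differed between genotypes was tested as an interaction that matches lines by their number, which called 15.3% of all genes. Since the sources used here do not tie same-numbered lines together, the opposite matching was fitted as well, after seeing the data, and called 9.75%. With lines matched by number it was called for Cldn15 (8.06, SE 1.39, adjusted p = 0.0112) and Patj (0.94, SE 0.22, adjusted p = 0.0313). For Cldn15 the fitted genotype difference was -0.38 between cultures numbered 1 and 7.67 between those numbered 2, whereas for Patj both were upwards, at 2.29 and 3.23. With the Fib-Ctrl line numbers exchanged, neither was called, with Cldn15 at 1.52 (SE 1.8, adjusted p = 0.636) and Patj at -0.75 (SE 0.22, adjusted p = 0.0772), and Tjp1 was (-0.64, SE 0.14, adjusted p = 0.0340). These interactions thus depend on the numbering. With lines matched by number, the call for Cldn15 was lost without Fib-Ctrl line 2 replicate 1 (adjusted p = 0.0535). That for Patj was lost without any Fib-Ctrl library (0.0759 to 0.0938) or without line 2 replicate 1 (0.113) or 2 (0.1) of Fib-dZeb1. Tjp1 did not pass (0.38, SE 0.14, adjusted p = 0.106). Between replicates 2 and 1, none of the 7 genes was called by edgeR's test, which called 0.0231% of all genes, and 2 had an unadjusted p under 0.05 (Cgn, 0.0112, and Cldn15, 0.0485).

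**Figure D4:**
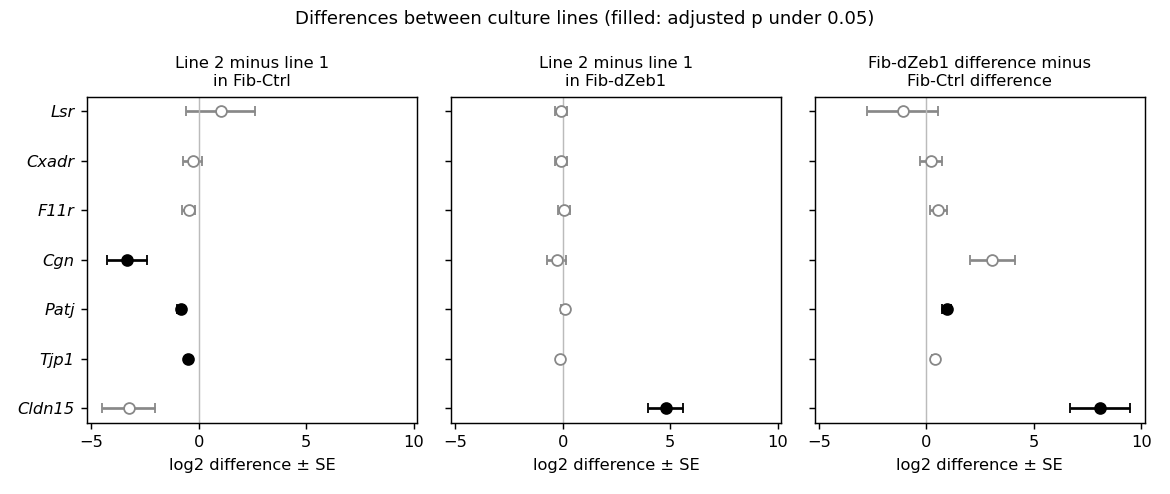
Log2 difference ± SE (x axis, same scale in each panel) for the 7 genes in the fit: line 2 minus line 1 in Fib-Ctrl (left) and in Fib-dZeb1 (middle), and the second minus the first with lines matched by number (right); filled points have an adjusted p under 0.05. Cldn15 stood at 4.79 in Fib-dZeb1, where the other 6 lay near 0.

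A wider list of 82 other junction genes shows what surrounded these members. It held claudins, other junction membrane proteins, and plaque and polarity scaffolds, and 45 of its genes passed the filter. The list was drawn up with earlier results of these data known. Its shares and p-values, also those of its parts below, are therefore description and not independent evidence. By edgeR's test of genotype, 9 of the 45 (20.0%) were higher in Fib-dZeb1 and 2 (4.44%) lower, against 7.54% higher and 8.65% lower of all genes. With an estimated correlation within lines (limma), 2 were higher and 0 lower. In the main test the other 34 did not pass. Of the 9 called higher, Prkcz, Wnk4 and Bves had passed the filter through their Fib-dZeb1 libraries. The median log2 fold change of the list was 0.057, close to that of all genes (-0.0047). The balance of directions depends on scaling, since library size alone gave 2272 genes higher and 719 lower over all genes in place of 978 and 1121, and 11 higher and 2 lower in the list. With the 2 lines of a genotype as units, no gene of the list was called.

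Of the claudin list, none of 5 tested genes was called by edgeR (1 with an unadjusted p under 0.05, and 1 called by DESeq2). The most abundant were Pmp22, a claudin-like myelin protein gene, at 104 ± 71.3 CPM in Fib-Ctrl against 48.6 ± 15.2 CPM with Zeb1 deleted (log2 fold change -1.10, SE 0.50, adjusted p = 0.166), and Cldnd1 at 65.6 ± 6.02 and 70.5 ± 9.44 CPM (0.10, SE 0.12, adjusted p = 0.595). Another 23 claudin genes were too low to test, and 13 of these had no read in any library. None of these averaged above 0.523 CPM in either genotype. The highest was Cldn2, another pore-forming claudin, with 0 reads in Fib-Ctrl and 45 in Fib-dZeb1. Its Fib-dZeb1 libraries lay at 1.62 and 0.377 CPM in line 1 and at 0.0911 and 0 CPM in line 2. Cldn4 had 0 and 9 reads, and Cldn3, a common epithelial claudin, had none at all. These untested genes are named after their values were seen. Of the claudins proper, 2 others were well covered. Cldn12 ranged over 31.2 to 62.8 CPM in Fib-Ctrl, compared with 38.4 to 88.8 CPM in Fib-dZeb1 (0.35, SE 0.31, adjusted p = 0.478), and Cldn1 at 6.41 to 70.7 and 7.78 to 42.7 CPM (-0.52, SE 0.79, adjusted p = 0.690). Cldn15 was thus not the only claudin gene covered by these libraries.

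Among the other membrane proteins, 7 were tested. Bves, which encodes a popeye-domain adhesion protein, rose from 0.681 ± 0.495 to 4.7 ± 3.19 CPM (2.77, SE 0.69, adjusted p = 0.0303). The Bves call was lost without any of 5 single libraries (adjusted p up to 0.0825) and kept without the other 3. With 55 reads in Fib-Ctrl, Bves had passed the filter through its Fib-dZeb1 libraries, so its call is description only. Jam3, a relative of F11r expressed in fibroblasts, fell from 46.2 ± 5.36 to 31.3 ± 1.45 CPM (-0.56, SE 0.11, adjusted p = 0.0115). Jam3 kept its call without any 1 library and lost it with an estimated correlation within lines (adjusted p = 0.122), as did Bves (adjusted p = 0.194). F11r and Jam3, of one family, thus lay on opposite sides of their control levels. Jam2 did not pass (0.49, SE 0.79, adjusted p = 0.709). Of the relatives of Lsr, Ildr2 was at 6.89 and 3.44 CPM (-1.0, SE 0.54, adjusted p = 0.235). Ildr1 was too low to test, with 0 reads in Fib-Ctrl and 25 in Fib-dZeb1, all of them in line 2 (0.82 and 0.257 CPM). Marveld3, a relative of Ocln and Marveld2, had 1 and 26 reads. These relatives were picked after their values were seen.

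Of the plaque and polarity scaffolds, which make up 33 of the 45 tested genes, 8 (24.2%) were higher and 1 (3.03%) lower, against 7.54% and 8.65% of all genes. Prkcz, an atypical protein kinase C of the Par polarity complex, rose from 0.499 ± 0.338 to 11.8 ± 5.68 CPM (4.56, SE 0.60, adjusted p = 0.00361). Pard6b, a partner of that kinase in the complex, rose from 0.83 ± 0.128 to 8.47 ± 2.54 CPM (3.35, SE 0.28, adjusted p = 0.000581). Wnk4, a kinase that acts on junctional claudins and ion transport, rose from 0.179 ± 0.0882 to 1.38 ± 0.321 CPM (2.90, SE 0.42, adjusted p = 0.00510). Afdn, the actin-linked adaptor afadin, rose from 52.2 ± 9.53 to 108 ± 9.32 CPM (1.05, SE 0.15, adjusted p = 0.00440). All 4 kept their calls without any 1 library. In Fib-Ctrl, Prkcz had 37 reads, and Wnk4 had 14 with no library above 0.31 CPM. Both had passed the filter through their Fib-dZeb1 libraries, so their calls are description only. With an estimated correlation within lines, Pard6b (adjusted p = 0.0289) and Afdn (adjusted p = 0.0479) kept theirs, while Prkcz (adjusted p = 0.161) and Wnk4 (adjusted p = 0.0910) did not.

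A further 4 scaffold genes that passed were smaller in size and are named after their values were seen. The basolateral polarity gene Llgl2 rose by 0.94 (SE 0.19, adjusted p = 0.0146), a call kept without any 1 library and lost with an estimated correlation within lines (adjusted p = 0.126). Prkci (0.65, adjusted p = 0.0445), Lin7c (0.59, adjusted p = 0.0227) and Scrib (0.58, adjusted p = 0.0242) kept theirs in 1, 5 and 2 of 8 fits that left out 1 library. Magi2 fell from 2.31 ± 0.381 to 1.05 ± 0.223 CPM with a log2 fold change of -1.13 (SE 0.28, adjusted p = 0.0297), kept in 2 of 8 such fits. With an estimated correlation within lines, none of these 4 was called (adjusted p = 0.149 to 0.207). Cgnl1, the cingulin relative, did not pass (0.33, SE 0.25, adjusted p = 0.395), nor did Mpdz, the relative of Patj (-0.22, SE 0.19, adjusted p = 0.458).

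**Figure D5:**
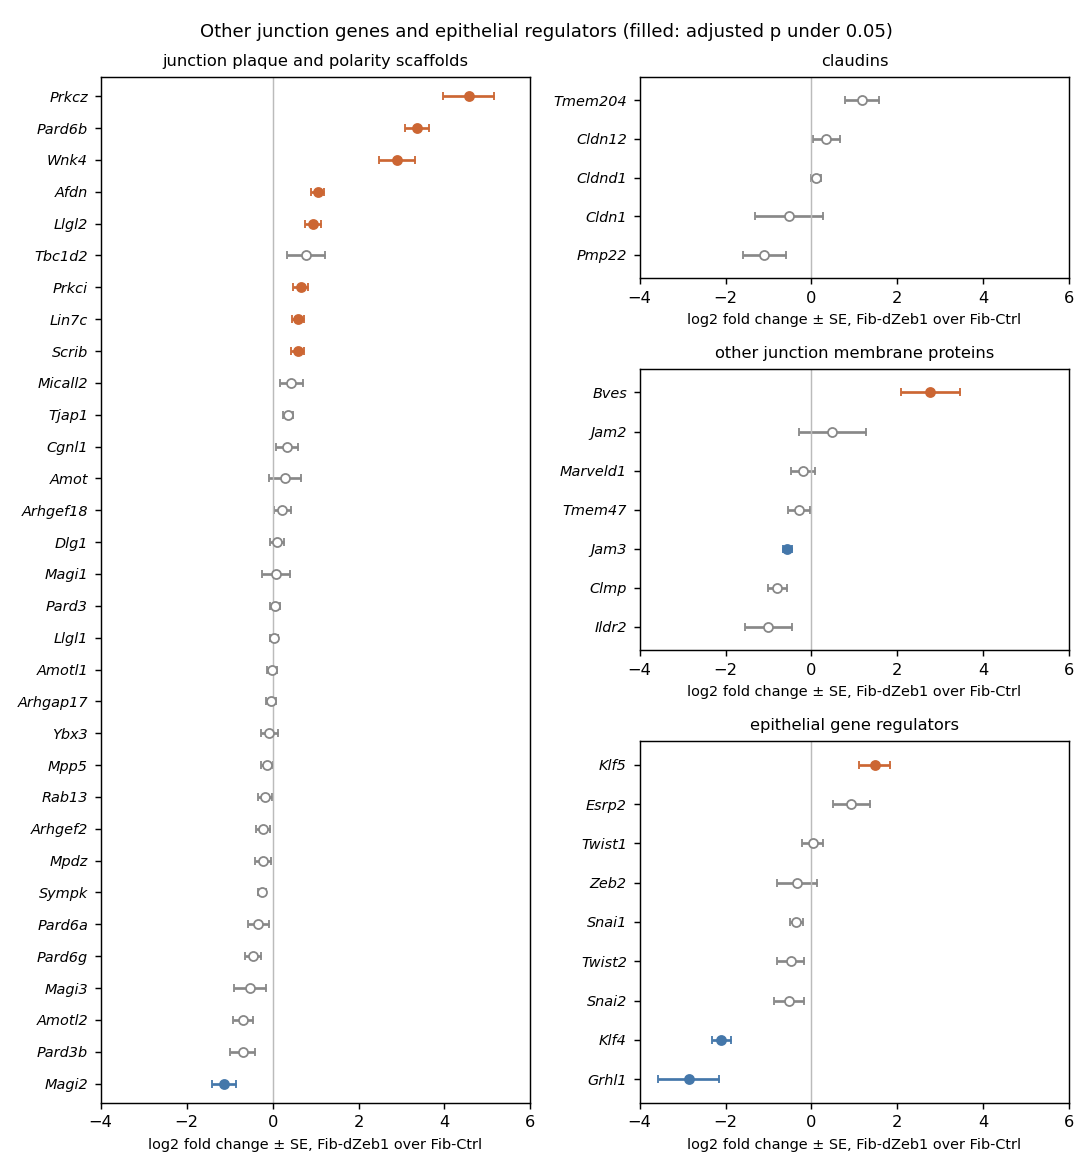
Log2 fold change ± SE (x axis, Fib-dZeb1 over Fib-Ctrl) of tested genes in 3 junction lists and the list of epithelial gene regulators; filled orange points were higher and filled blue points lower at an adjusted p under 0.05. Prkcz, Pard6b and Wnk4 lay furthest to the right among scaffolds, and no claudin was called.

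Regulators known to control epithelial genes were read beside these values, from a list likewise drawn up with earlier results of these data known. Of 9 tested, 1 was higher (11.1%, against 7.54% of all genes) and 2 were lower (22.2%, against 8.65%). Klf5 rose from 3.49 ± 1.65 to 9.66 ± 2.13 CPM (1.47, SE 0.36, adjusted p = 0.0283), and Klf4 fell from 61.9 ± 9.59 to 14.5 ± 4.62 CPM (-2.10, SE 0.22, adjusted p = 0.00152). Klf4 kept its call without any 1 library, whereas Klf5 kept it in 4 of 8. Grhl1 fell from 0.992 ± 0.271 to 0.138 ± 0.116 CPM (-2.85, SE 0.71, adjusted p = 0.0304), with a call kept in 2 of 8. With 12 reads in Fib-dZeb1, Grhl1 had passed the filter through its Fib-Ctrl libraries, so this call is description only. With an estimated correlation within lines Klf4 kept its call (adjusted p = 0.0165), whereas Klf5 (adjusted p = 0.0981) and Grhl1 (adjusted p = 0.196) did not. The epithelial regulators Ovol2, Esrp1, Cdx1, Cdx2 and Hnf4a had no read in any library. Of the related repressors, Zeb2 (-0.34, SE 0.47, adjusted p = 0.654), Snai1 (-0.35, SE 0.16, adjusted p = 0.170) and Snai2 (-0.52, SE 0.35, adjusted p = 0.338) did not pass.

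Markers of other cell types were read in the same libraries, because epithelial cells in a culture would bring junction transcripts with them. The summed TPM of 16 epithelial markers was 2.96 to 15.4 in Fib-Ctrl, compared with 26.2 to 192 in Fib-dZeb1. A mean of at least 1 TPM was reached by 2 of the 16 in Fib-Ctrl and 4 in Fib-dZeb1, and 4 and 3 of them had no read. In Fib-Ctrl the largest part in line 1 was Lgr5, at 10.9 and 6.6 TPM there, 0.0384 and 0.142 in line 2, and at most 0.228 TPM in Fib-dZeb1. In Fib-dZeb1 most of the sum was keratin. Krt18 was at 66.6 and 179 TPM in line 1 and 3.97 and 9.05 TPM in line 2 of Fib-dZeb1, against at most 0.563 TPM in Fib-Ctrl. Krt19 lay at 2.55, 5.8, 16.3 and 26.6 TPM in Fib-dZeb1 and overlapped Fib-Ctrl (1.61 to 5.42 TPM). Krt8 had 1 read in Fib-Ctrl and 102 in Fib-dZeb1. Epcam was also higher in Fib-dZeb1 without overlap, at 1.84 to 4.58 TPM against at most 0.0516 TPM in Fib-Ctrl. By contrast Cdh1, the E-cadherin gene, did not exceed 0.252 TPM in any library, and Cdx2, Cldn3 and Slc26a3 had no reads in either genotype. Lsr at 36.1 to 57.0 TPM and F11r at 55.9 to 71.5 TPM in Fib-dZeb1 were above Epcam and Cdh1 in every Fib-dZeb1 library. Krt18 was above Lsr in both line 1 libraries of Fib-dZeb1, and above F11r summed over its transcripts in replicate 2 of that line. In line 2 it was below both genes. Among mesothelial markers, 10 in number, the sum was 0.928 to 1.47 TPM in Fib-Ctrl but 2.32 to 9.18 TPM in Fib-dZeb1, with Msln at 1.11 to 7.51. Endothelial markers, also 10, summed to 6.08 to 9.74 and 8.25 to 15.8 TPM, mostly Egfl7. The 3 markers of interstitial cells of Cajal summed to 7.04 to 15.9 TPM in Fib-Ctrl and 32.0 to 65.8 TPM in Fib-dZeb1 through Ano1 and Etv1, while Kit had at most 0.0565 TPM. Glial markers stayed at or below 2.29 TPM in sum and the 6 immune markers at or below 22.7, led by Lyz2. The part of other cells in the junction gene levels was not tested.

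As a description, the protein-coding genes whose log2 CPM ran most like each member over the 8 libraries were listed, among 12044 genes. Lsr was closest to Rab11fip1 (Pearson r = 0.9964) and Slc25a23 (0.995), F11r to Baiap2l1 (0.9973) and Tdrp (0.9933), and Cxadr to Parp2 (0.9969) and Epb41 (0.9958). Patj was closest to Rps6ka1 (0.9944) and Ptpn2 (0.9906), and Cgn to Hmgn1 (0.9911) and Ptpn2 (0.9897). These points fall into 2 genotype clusters, so a high r mostly repeats the genotype contrast. Tjp1, which did not separate by genotype, was closest to Ccp110 (0.9929) and Tap2 (0.9772), and Cldn15 to Mob3c (0.9877) and Itpripl1 (0.9868).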

How the data were processed

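RNA of 8 mouse colon fibroblast cultures was sequenced after poly-A selection. The authors used the nf-core RNA-seq pipeline 3.11.0 with STAR, Salmon and GRCm38, and deposited estimated counts and TPM for 109617 transcripts per library. Strandedness is not given in the sources used here. For this report, estimated counts and TPM were summed to genes with GENCODE M21 (98.72% of transcripts matched) and counts rounded. Genes passing edgeR's filterByExpr (12963) were TMM-scaled and tested with edgeR 4.0.16 (glmQLFit, Benjamini-Hochberg): genotype in all 8 libraries, and lines within genotype in a 4-line fit. DESeq2 1.42.0, limma 3.58.1 and other settings were alternatives. On simulated data, the genotype test found 84% of 4-fold and 30% of 2-fold changes among 12963 genes, and the line test 54% and 4%. The simulated libraries were independent and took their spread from the genotype fit, while the estimated correlation within real lines was 0.543. The genotype shares may thus be too high for 2 lines per genotype, and the line shares need not hold for the real lines. Members and lists were chosen with earlier results of these data known. Named genes were all 9 members, Zeb1, up to 4 called genes per direction and list (else the 2 most abundant), the leading markers, and 2 nearest genes per member. Counting intervals are 95%, exact and cover counting error only. The authors' TPM were used for levels between genes, transcript shares, ranks and marker levels, and no TPM was tested. Sampling noise alone did not account for the differences between replicates, so no library was counted as a duplicate. Values of 1 scaffold gene in the lists are not reported here.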

Additional observations from a re-analysis of the deposited data

Results flagged for a closer look

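Chance marks about 1 in 20 of the 40 sample sets checked for a library apart from its group, and 2 were marked. F11r was at 2.89 CPM in Fib-Ctrl line 2 replicate 2, against 6.12 to 6.46 CPM in the other 3 Fib-Ctrl libraries. Grhl1 was at 1.4 CPM in Fib-Ctrl line 2 replicate 1, against 0.826 to 0.874 CPM in the other 3.

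For 4 of the 19 genes looked at, the genotype difference between cultures numbered 2 differed from that between cultures numbered 1, by an interaction in edgeR's test that called 15.3% of all genes. It matches lines across genotypes by numbers that are not known to tie them. The excess in cultures numbered 2 on the log2 scale was 8.06 for Cldn15 (-0.38 against 7.67, adjusted p = 0.0112) and 0.94 for Patj (2.29 against 3.23, adjusted p = 0.0313). It was 3.37 for Bves (0.98 against 4.35, adjusted p = 0.0257) and 2.07 for Pmp22 (-1.83 against 0.24, adjusted p = 0.0224). With the Fib-Ctrl line numbers exchanged, Cldn15 (1.52, adjusted p = 0.636), Patj (-0.75, adjusted p = 0.0772) and Bves (0.44, adjusted p = 0.760) were not called and Pmp22 changed sign (-1.82, adjusted p = 0.0439).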

How the results depend on the processing

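No called difference changed direction in the alternatives run, except when the Fib-Ctrl line numbers were exchanged in the difference of lines. There Patj went to -0.75 and Tjp1, now called, to -0.64, and 1 member was called in place of 2. Line differences that were not called for Lsr, Cxadr, F11r, Patj and Cgn, and the Tjp1 level difference between genotypes, changed sign in some fits that left out 1 library. Counts of genes over all 12963 moved with the spread that was assumed. From 978 genes higher and 1121 lower, scaling by library size alone gave 2272 and 719 (it shifted the median log2 fold change by 0.18), DESeq2 1573 and 1757, the 2 lines as units 9 and 7, and an estimated correlation within lines (0.543) 114 and 146. Leaving out 1 library gave 476 to 1011 higher and 508 to 1141 lower, the lowest without Fib-dZeb1 line 2 replicate 2. Both counts moved by over 1.5 times without that library, Fib-dZeb1 line 2 replicate 1 or line 1 replicate 2, or replicate 1 of either Fib-Ctrl line. In the wider junction list, 9 higher and 2 lower genes became 0 and 0 with lines as units and 2 and 0 with the correlation. The lower count was 1 with no filter, 4 with DESeq2 and 1 with the replicate block by line. Leaving out 1 library gave 5 to 8 higher and 1 to 2 lower, with 5 once replicate 1 of Fib-Ctrl line 2 or replicate 2 of Fib-dZeb1 line 2 was omitted. Members called between lines, with 1 library left out, ran from 0 to 1 in Fib-dZeb1, from 0 to 4 in Fib-Ctrl and from 1 to 2 for the difference of lines. With a replicate block the genotype counts were 920 and 1046, and members called were 1, 4 and 3 (main 1, 3 and 2). Deviations of same-numbered libraries correlated at -0.041 to 0.2, so numbers were not taken as pairs. The number of libraries whose deviation correlated most with that of a same-numbered library was 3 of 8, a hint from the data only.

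With lines as units, none of the named list genes kept its call. Depth limits Marveld2, Ocln and Lsr in Fib-Ctrl. Of the 10 cases in which a member level moved, 5 came with a pseudocount of 0.1 in place of 0.5 on CPM and 5 with TPM, where unit and pseudocount changed together. F11r moved only on TPM. Alternatives for the difference of lines were chosen after seeing the data.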
